A study of Mus musculus with 4 samples.

Results

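The genes described here are 7 genes of the sodium pump and of ion or bicarbonate transport, taken by name from a table of 53379 genes: the pump's beta subunits Atp1b1, Atp1b2 and Atp1b3, its regulator Fxyd1, the bicarbonate cotransporter Slc4a4, the carbonic anhydrase Car2 and the chloride importer Slc12a2. All 7 had enough counts to be tested, as had 18838 genes of the table. RNA sequencing counts were deposited for cultured cortical astrocytes of newborn C57BL/6 mice at day 14 in vitro, from wild-type cells (2 libraries) and Npas3-/- cells (2 libraries). Npas3 encodes a transcription factor of the bHLH-PAS family, and neither the allele that was used nor the number of animals behind a library was stated in the labels. Both genotypes were grown in serum-containing medium after neurons and loosely attached cells had been shaken off.

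The sodium pump (Na,K-ATPase) uses ATP to export sodium and import potassium. Its alpha subunit carries out the transport, its beta subunit is a glycoprotein that brings the alpha subunit to the membrane, and small FXYD proteins adjust its affinity and speed. In astrocytes the pump takes up potassium released by active neurons, and the sodium gradient it builds drives Slc4a4 (NBCe1), which carries sodium with bicarbonate and sets intracellular and extracellular pH. Car2 interconverts carbon dioxide and bicarbonate in the cytosol, and Slc12a2 (NKCC1) brings sodium, potassium and chloride into the cell together and takes part in volume control.

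Promoter sequence from RefSeq on build GRCm38.p6, 250 bases before to 50 after a transcript start, was matched for 4 of the 7 genes with 6 windows. The windows below are shown for Slc4a4, the gene with the largest fall, whose gene-level counts add up transcripts of both starts; for the start of Atp1b3 that holds the searched motif; and for Fxyd1, whose level as counted was higher in both Npas3-/- libraries. Capitals mark ACGTG on either strand, the core of elements bound by bHLH-PAS factors with their ARNT partners; a palindrome CACGTG counts on both strands. Sequences run 5′ to 3′ along the gene.
Slc4a4 upstream start (chr5:88887010-88887309, plus strand): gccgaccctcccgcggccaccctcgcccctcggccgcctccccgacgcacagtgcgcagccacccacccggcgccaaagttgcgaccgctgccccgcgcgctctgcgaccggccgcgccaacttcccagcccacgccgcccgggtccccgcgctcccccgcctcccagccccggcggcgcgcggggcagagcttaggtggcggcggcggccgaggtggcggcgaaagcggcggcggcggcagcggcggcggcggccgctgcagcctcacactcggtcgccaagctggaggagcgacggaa
Slc4a4 downstream start (chr5:89027716-89028015, plus strand): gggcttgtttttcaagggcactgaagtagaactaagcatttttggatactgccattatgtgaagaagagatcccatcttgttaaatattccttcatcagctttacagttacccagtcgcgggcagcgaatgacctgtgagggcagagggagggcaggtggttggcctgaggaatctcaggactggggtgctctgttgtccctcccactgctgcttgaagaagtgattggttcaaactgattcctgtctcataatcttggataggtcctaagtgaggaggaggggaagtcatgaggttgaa
Atp1b3 downstream start (chr9:96363666-96363965, minus strand): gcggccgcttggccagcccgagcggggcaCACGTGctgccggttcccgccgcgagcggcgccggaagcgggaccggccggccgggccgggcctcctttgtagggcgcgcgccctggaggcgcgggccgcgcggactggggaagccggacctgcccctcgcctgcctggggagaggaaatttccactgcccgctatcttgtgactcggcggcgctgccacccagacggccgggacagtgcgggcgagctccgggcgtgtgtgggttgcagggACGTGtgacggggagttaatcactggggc
Fxyd1 (chr7:31054804-31055103, minus strand): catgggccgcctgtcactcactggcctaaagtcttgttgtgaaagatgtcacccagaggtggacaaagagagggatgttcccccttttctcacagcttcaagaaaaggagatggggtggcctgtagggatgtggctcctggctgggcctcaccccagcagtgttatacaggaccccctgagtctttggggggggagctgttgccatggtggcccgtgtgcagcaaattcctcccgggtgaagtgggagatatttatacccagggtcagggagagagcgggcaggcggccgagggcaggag
The motif was found in 1 of the 6 windows, and 19.6% of 32851 windows of all genes held it. That window, of Atp1b3, had 3 matches in 2 separate stretches. The other windows, both of Slc4a4, the one of Fxyd1, the upstream one of Atp1b3 (chr9:96364382-96364681) and the one of Atp1b1 (chr1:164458306-164458605), had none of these letters. The starts of Slc4a4 differ in composition: the upstream window was 80.0% G or C with 50 CG dinucleotides and the downstream one 48.3% with 3, while all windows had a median of 52.7% and 7. The Fxyd1 window was 58.7% G or C with 6 CG dinucleotides, and that of Atp1b1 71.0% with 31.

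The libraries were deep and even, between 82965565 and 86932708 counts, and the smallest count of any of the 7 genes was 1254, a counting error of at most 2.82%. In the edgeR quasi-likelihood test with Benjamini-Hochberg adjustment at 0.05, 11.6% of tested genes were higher and 21.5% were lower in Npas3-/-. Fold changes followed the GC content of the transcript across 14356 genes with at least 1 CPM, that is counts scaled to the size of the library (Spearman's rho 0.73, across genes, which share the same 4 libraries), and so did the difference of wild-type replicate 1 from replicate 2 (0.54) and of Npas3-/- replicate 2 from replicate 1 (0.36). Each fold change is therefore given both as counted and corrected for the GC content and length of each transcript, after which rho was 0.04. With the correction 4.56% of tested genes were higher and 3.81% were lower. A real difference that runs with GC content or length is taken out by it as well, and which of the pair of values is nearer to the cells was not tested. Without Npas3-/- replicate 2 no gene of 20315 tested passed in edgeR as counted, although 5728 had an unadjusted p below 0.05.

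Npas3 itself was counted 5129 and 8739 times in the wild-type libraries and 2055 and 1386 times in the Npas3-/- ones. Its level fell by 1.82 on the log2 scale as counted (edgeR adjusted p = 0.018), and with the correction the difference was -0.65 (adjusted p = 0.11). The counts are per gene and do not show which exons are left. Of 9 astrocyte markers all 9 were tested, and Gfap was the most abundant on average over all libraries. Their sum was between 3078 and 3900 CPM in wild type and 4875 and 4877 CPM in Npas3-/-. But the markers went both ways, with 2 higher and 3 lower as counted and 2 and 2 with the correction. Gfap and Aldoc were the higher ones. Aqp4, the astrocytic water channel, fell by 4.01 on the log2 scale (edgeR adjusted p = 0.016; with the correction -1.57, adjusted p = 0.038), and the gap junction gene Gja1 fell by 2.58 (adjusted p = 0.013; with the correction -1.35, adjusted p = 0.023). The third lower gene, Slc1a2, fell by 2.48 (edgeR adjusted p = 0.018), and with the correction the difference was -0.39 (adjusted p = 0.44). Slc1a3, the most abundant marker in wild type, was at 1043 and 1245 CPM there and at 750.2 and 584.2 CPM in Npas3-/-. Its log2 fold change was -0.78 (edgeR adjusted p = 0.056), and 0.21 with the correction (adjusted p = 0.43). Aldoc, Aqp4, Gja1, Slc1a2, Slc1a3 and, below, Map2 and Olig2 were named after their values were seen. Summed neuron markers were 74.0 to 93.8 CPM in all libraries with Tubb3 the most abundant, while 0 of 6 tested were higher and 3 were lower as counted, 0 and 1 with the correction. Map2, a protein of neuronal microtubules, was at 36.4 and 45.0 CPM in wild type and 4.43 and 1.82 CPM in Npas3-/- (edgeR adjusted p = 0.013, and 0.023 with the correction). Tubb3 stood at 45.9 and 21.9 CPM in wild type and 65.2 and 79.6 CPM in Npas3-/- (edgeR adjusted p = 0.077). Rbfox3 and Snap25 were at 0 in both Npas3-/- libraries, but they had at most 0.27 and 0.37 CPM in wild type, too few counts to be tested. Microglial markers summed to at most 4.91 CPM and endothelial ones to at most 17.2 CPM, with Tmem119 and Flt1 the most abundant. Oligodendrocyte lineage markers, mostly Cnp and Olig2, summed to 488 to 566 CPM in wild type and 687 to 756 CPM in Npas3-/-. Mog was at 0 in all libraries. Of 7 tested, 1 was higher and 1 was lower as counted, 0 and 1 with the correction. For Cnp the log2 fold change was 0.76 (edgeR adjusted p = 0.046), and 0.004 with the correction (adjusted p = 0.99). For Olig2 it was 0.10 (adjusted p = 0.76), and -0.70 with the correction (adjusted p = 0.049). Choroid plexus and ependymal markers, mostly Foxj1, summed to 252 to 358 CPM in wild type and 493 to 619 CPM in Npas3-/-. Tmem212 was at 0 in all libraries, and Ttr had 12 counts in wild-type replicate 1 and 0 in the others. Meningeal and fibroblast markers, mostly Col1a2, summed to 331 to 396 CPM and 289 to 345 CPM. The part of these cells in the results below was not tested, and in bulk RNA fewer cells of a type and less RNA per cell cannot be told apart.

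As counted, 0 of the 7 genes were higher and 2 were lower in Npas3-/- after adjustment, Slc4a4 and Slc12a2; at an unadjusted p below 0.05 they were 1 and 5 (20.3% and 27.6% of all tested genes), and DESeq2 called 1 higher and 3 lower (18.7% and 25.7%). With the correction 0 were higher and 1 was lower, Car2; at an unadjusted p below 0.05 they were 0 and 3 (14.1% and 15.2% of all tested genes), and DESeq2 with the correction called 0 and 2 (11.1% and 10.2%). Per-library levels did not overlap between genotypes for 6 of the 7 genes, against 75.8% of all tested genes, and with the correction for 4 of 7, against 61.5%. As counted the 7 genes had a median log2 fold change of -0.51, beside -0.07 over all tested genes; corrected medians were -0.25 and -0.03.

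**Figure D1:**
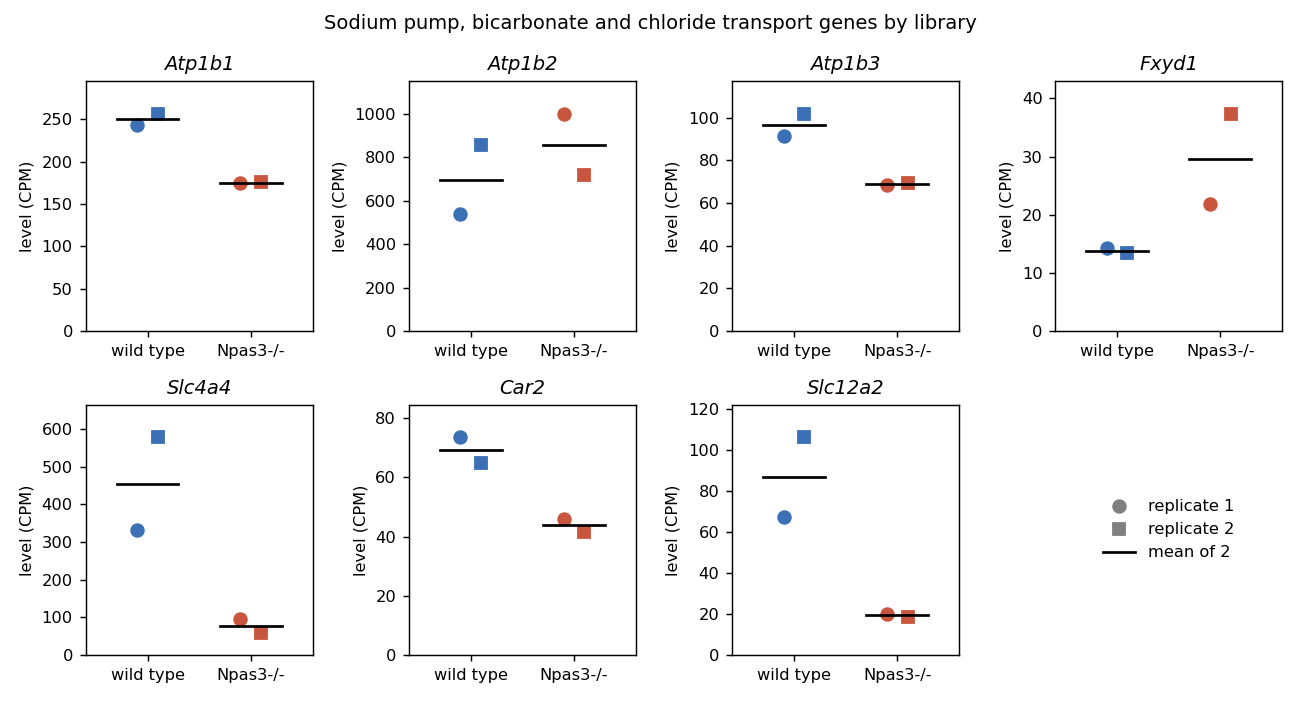
Level of each gene in CPM (linear axes from 0) in the 4 libraries, wild type in blue and Npas3-/- in red, with the mean of each genotype as a bar. Slc4a4 and Slc12a2 lie far below both wild-type libraries in Npas3-/-, Fxyd1 lies above, and the Atp1b2 libraries of the genotypes interleave.

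Levels can be compared between genes only per length, as TPM (transcript counts per kb of exon, scaled to one total in each library). In wild type Atp1b2 was the most abundant of the 7 genes at 585.1 ± 206.6 TPM (SD, n = 2), followed by Atp1b1 at 277.3 ± 19.0. Slc4a4 (144.5 ± 59.8), Atp1b3 (138.2 ± 15.0) and Car2 (97.4 ± 5.68) followed. The range of Slc4a4, 102.2 to 186.8 TPM, spanned that of Atp1b3, so that this pair did not differ beyond its spread. Slc12a2 (27.3 ± 9.39) and Fxyd1 (21.6 ± 0.25) were lowest and overlapped. In Npas3-/- the order was Atp1b2 (550.3 ± 184.3 TPM), Atp1b1 (147.1 ± 14.5), Atp1b3 (74.5 ± 7.17), Car2 (47.0 ± 8.10), Fxyd1 (34.4 ± 9.25), Slc4a4 (18.9 ± 8.17) and Slc12a2 (4.58 ± 0.71), and no neighbours in that order overlapped. These levels use all exon bases of a gene, 2186 for Fxyd1, whose longest coding transcript has only 620. For Car2 these lengths are 2422 and 1788. The place of Fxyd1 in both orders therefore depends on the length used. On this scale, not corrected for GC content, Slc4a4 stood above Fxyd1 in both wild-type libraries and below it in both Npas3-/- libraries. Slc4a4 and Car2 also changed places, but in wild-type replicate 1 this pair was nearly level, at 102.2 and 101.4 TPM. With corrected CPM per kb of exon, Slc4a4 lay below Car2 and above Fxyd1 in every library, so neither change of place was seen.

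The pump's beta subunits did not pass the test as counted or with the correction. Atp1b1 (ENSMUSG00000026576.12, chr1:164437109-164458355, minus strand), the widely expressed beta subunit, stood at 243.3 and 256.5 CPM in wild type and 174.3 and 175.9 CPM in Npas3-/-. Replicates were close together and the genotypes were apart. Its log2 fold change was -0.51 (SE 0.18, 95% interval -0.97 to -0.05, edgeR adjusted p = 0.080) and -0.48 with the correction (SE 0.15, interval -0.84 to -0.12, adjusted p = 0.095), nearly the same size in both. With a filter of 5 CPM on average, which left 11652 tested genes, the log2 fold change was -0.56 (SE 0.18, edgeR adjusted p = 0.048). Its exons share 575 of 3081 bases with Nme7 on the opposite strand, and reads there cannot be told apart, since no strand setting is stated. Nme7 was at 21.9 and 21.3 CPM in wild type and 15.6 and 18.0 CPM in Npas3-/-, far below Atp1b1.

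Atp1b2 (ENSMUSG00000041329.13, chr11:69599736-69605942, minus strand), known as the adhesion molecule on glia, is the beta subunit typical of astrocytes. Its levels were 536.7 and 855.2 CPM in wild type and 999.6 and 715.5 CPM in Npas3-/-, so that the spread within each genotype was as wide as the distance between them. Its log2 fold change was 0.30 (SE 0.32, interval -0.49 to 1.09, edgeR adjusted p = 0.49) and -0.04 with the correction (SE 0.31, interval -0.81 to 0.73, adjusted p = 0.95). With 2 libraries per genotype, the data did not tell apart differences within these intervals. The sign also turned when wild-type replicate 1, the lowest library, was left out (-0.01), and with the correction when wild-type replicate 2 (0.41) or Npas3-/- replicate 2 (0.20) was. On the TPM scale the Npas3-/- mean was slightly below that of wild type.

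Atp1b3 (ENSMUSG00000032412.8, chr9:96332655-96364442, minus strand), the least abundant of the beta subunits here, stood at 91.3 and 101.8 CPM in wild type and 68.3 and 69.1 CPM in Npas3-/-. As for Atp1b1, both Npas3-/- libraries lay below both wild-type ones. The log2 fold change was -0.49 (SE 0.19, interval -0.96 to -0.02, edgeR adjusted p = 0.092). With the correction it was -0.25 (SE 0.16, interval -0.63 to 0.13, adjusted p = 0.34), and with a correction for GC content alone it was 0.08.

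As counted, with no correction for GC content, Atp1b2 took up a larger share of the beta subunit TPM in both Npas3-/- libraries. It made up 52.9% and 62.5% in wild type and 74.2% and 67.1% in Npas3-/-, and the shares did not overlap. Atp1b1 had smaller shares there, at 31.8% and 24.8% in wild type and 17.2% and 21.9% in Npas3-/-, and Atp1b3 stood at 15.4% and 12.7% in wild type and 8.67% and 11.1% in Npas3-/-. With corrected CPM per kb of exon, a setting added after the data were seen, the Atp1b2 shares were 56.0% and 66.3% in wild type and 71.5% and 63.4% in Npas3-/- and overlapped. So did those of Atp1b1, at 30.3% and 22.9% in wild type and 18.4% and 23.8% in Npas3-/-, and of Atp1b3, at 13.7% and 10.9% against 10.1% and 12.8%. These shares are a description without a test. Counting error was worked out for a subunit's share of the beta subunit counts, not scaled by length. It was at most 0.34 percentage points to either side (Wilson 95% interval). Replicates differed by far more than this in the TPM shares.

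**Figure D2:**
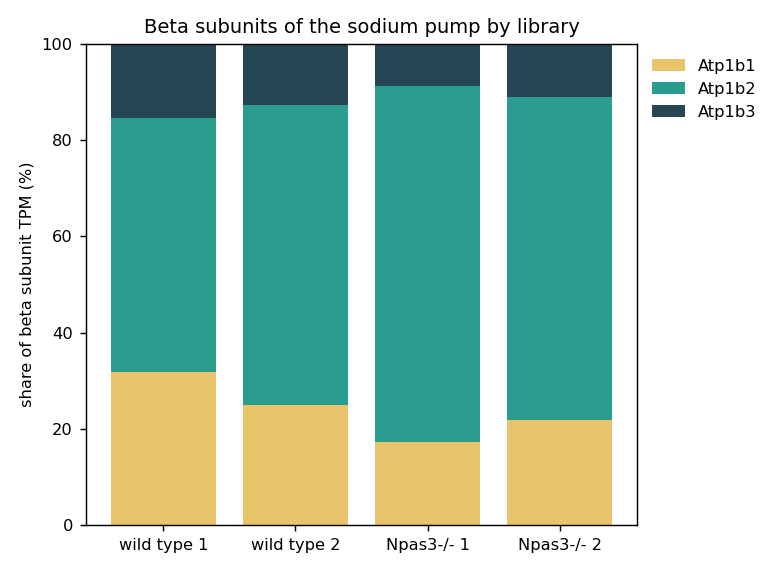
Share of each beta subunit in the summed TPM of the beta subunits, in percent, for each of the 4 libraries, as counted. Atp1b2 takes 52.9% and 62.5% in wild type and 74.2% and 67.1% in Npas3-/-, and the shares of Atp1b1 and Atp1b3 are smaller in both Npas3-/- libraries; with the GC and length correction, not plotted, the shares of all 3 overlap between genotypes.

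Fxyd1 (ENSMUSG00000036570.14, chr7:31051678-31057199, minus strand), or phospholemman, is the FXYD regulator that kinases phosphorylate to relieve its inhibition of the pump. Wild-type cells gave 1264 and 1254 counts and Npas3-/- cells 1817 and 2878, that is 14.2, 13.4, 21.9 and 37.4 CPM. Both Npas3-/- libraries were above wild type, and replicate 2 was well above replicate 1. The log2 fold change was 1.10 (SE 0.33, interval 0.28 to 1.92, edgeR adjusted p = 0.052), just short of the threshold, and 0.67 without Npas3-/- replicate 2 (adjusted p = 0.28). With the correction the sign turned, to -0.22 (SE 0.22, interval -0.76 to 0.32, adjusted p = 0.56), and the corrected libraries overlapped at 18.8, 24.4, 17.4 and 19.6 CPM. The Fxyd1 transcript had the highest GC content of the 7 genes, 57.3%.

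Among the other FXYD genes, 3 of 6 were tested and 1 was higher as counted, Fxyd6, a pump regulator of neural tissue. Fxyd6 was at 34.6 and 24.1 CPM in wild type and 73.8 and 95.9 CPM in Npas3-/- and rose by 1.53 on the log2 scale (edgeR adjusted p = 0.018, and 0.10 without Npas3-/- replicate 2), while the corrected difference was 0.61 (adjusted p = 0.069). Of the 4 NKAIN genes, membrane proteins that bind the pump's beta subunit, 1 was higher and 1 was lower. Nkain2 was at 9.01 and 9.12 CPM in wild type and 1.29 and 1.39 CPM in Npas3-/- and fell by 2.76 on the log2 scale (edgeR adjusted p = 0.013, 0.080 without Npas3-/- replicate 2). It also passed with the correction, falling by 1.72 (adjusted p = 0.032), a call lost without any 1 library (adjusted p = 0.051 to 0.15). Nkain4 rose by 1.43 as counted (adjusted p = 0.031, lost without wild-type replicate 1 or either Npas3-/- library), and its corrected difference was 0.47 (adjusted p = 0.41). For Nkain1 the log2 fold change was 0.52 (adjusted p = 0.22) and -0.60 with the correction (adjusted p = 0.34).

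Slc4a4 (ENSMUSG00000060961.14, chr5:88886818-89239653, plus strand) had the largest difference of the 7 genes. The wild-type libraries held 29390 and 54163 of its counts and the Npas3-/- libraries 7965 and 4573, or 330.9, 578.5, 96.1 and 59.4 CPM. Both Npas3-/- libraries lay far below both wild-type ones, though replicates of each genotype were also well apart. Slc4a4 fell by 2.55 on the log2 scale, 5.85-fold lower or 17.1% of the wild-type level (SE 0.39, interval -3.52 to -1.57, edgeR adjusted p = 0.015). The fall passed without any 1 of the other 3 libraries and not without Npas3-/- replicate 2 (adjusted p = 0.080). With the correction the levels were 210.9 and 282.2 CPM in wild type and 145.3 and 126.2 CPM in Npas3-/-. They still did not overlap, and the log2 fold change was -0.86 (SE 0.20, interval -1.34 to -0.38), with an adjusted p of 0.053, just outside the threshold. It passed with a correction that left out length (-1.46, adjusted p = 0.041), with splines of 3 degrees of freedom (adjusted p = 0.043) and without wild-type replicate 1 (-1.06, adjusted p = 0.029). It did not pass without wild-type replicate 2 (-0.65, adjusted p = 0.11), Npas3-/- replicate 1 (-0.98, adjusted p = 0.15) or Npas3-/- replicate 2 (-0.77, adjusted p = 0.26), with a correction fitted over all tested genes (-0.83, adjusted p = 0.063) or with the replicate block (-0.85, adjusted p = 0.12). The Slc4a4 transcript had a GC content of 45.9%.

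**Figure D3:**
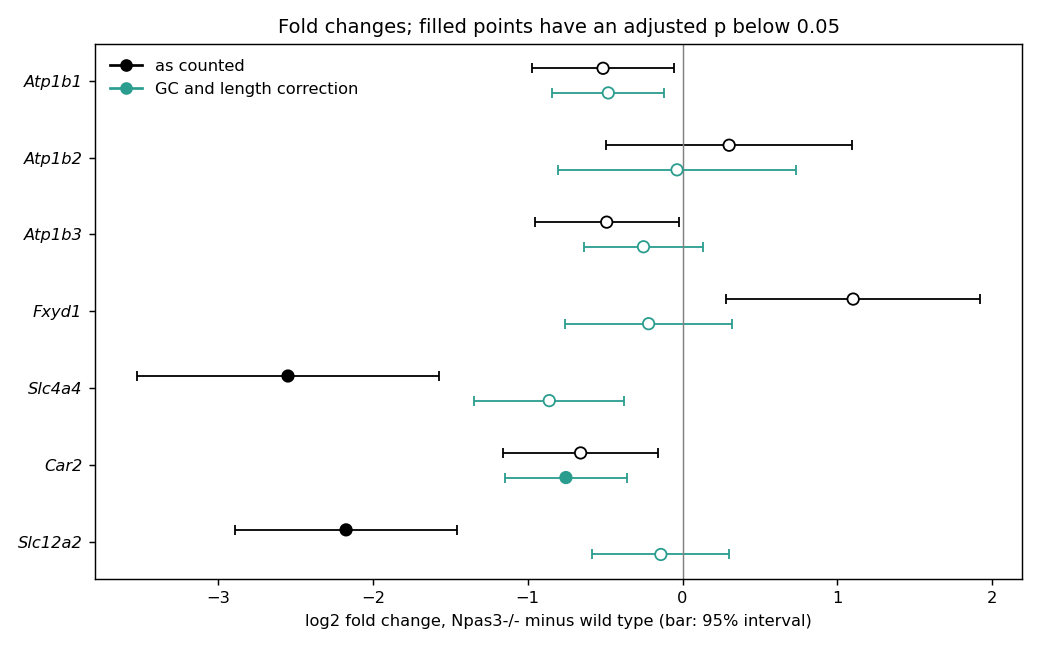
Log2 fold change of Npas3-/- over wild type with its 95% interval from edgeR, as counted (black) and with the GC and length correction (green), for the 7 genes; filled points passed an adjusted p of 0.05. Slc4a4 and Slc12a2 are filled as counted and Car2 with the correction, and Fxyd1 changes side.

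The other bicarbonate transporters did not share one direction. Of 9 genes, 7 were tested, and as counted 0 were higher and 2 were lower; with the correction 1 was higher and 0 were lower. Slc4a7 (NBCn1), which carries sodium and bicarbonate without net charge, was at 20.9 and 31.7 CPM in wild type and 3.92 and 3.97 CPM in Npas3-/- and fell by 2.74 on the log2 scale (edgeR adjusted p = 0.013, 0.080 without Npas3-/- replicate 2). Its transcript was 41.6% G or C, and the corrected difference was -0.13 (adjusted p = 0.80). The other lower gene, Slc4a10, was named after its values were seen; it stood at 0.75 and 0.98 CPM in wild type and at 0 in both Npas3-/- libraries. For the chloride-bicarbonate exchangers Slc4a3 and Slc4a2 the log2 fold changes were 0.63 (adjusted p = 0.054) and 0.46 (adjusted p = 0.098), and 0.72 (adjusted p = 0.071) and 0.02 (adjusted p = 0.95) with the correction. Slc4a8, also named after its values were seen, was the gene higher with the correction (1.09, adjusted p = 0.040), and as counted it stood at 22.3 and 24.3 CPM in wild type and 29.3 and 26.9 CPM in Npas3-/-.

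Car2 (ENSMUSG00000027562.12, chr3:14886273-14900770, plus strand) was at 73.5 and 64.7 CPM in wild type and 45.9 and 41.7 CPM in Npas3-/-, with replicates close and genotypes apart. The log2 fold change as counted was -0.66 (SE 0.20, interval -1.16 to -0.16, edgeR adjusted p = 0.054). With the correction Car2 fell by 0.75 on the log2 scale, to 0.593 times the wild-type level, with means of 42.4 and 71.4 corrected CPM (SE 0.16, interval -1.15 to -0.36, adjusted p = 0.046). That call was lost without any 1 of the 4 libraries (adjusted p = 0.077 to 0.28), with a correction fitted over all tested genes (-0.57, adjusted p = 0.079), with splines of 3 degrees of freedom (-0.59, adjusted p = 0.075), with the replicate block (-0.76, adjusted p = 0.12) and with GC content alone (-0.39, adjusted p = 0.18), all with the same sign. As for Atp1b1, the size of the difference changed little with the full correction; the Car2 transcript had a GC content of 49.1%.

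Of 15 other carbonic anhydrase genes 11 were tested, and 2 were higher and 3 were lower as counted, 1 and 0 with the correction. Car11, a related protein without enzyme activity, was at 15.2 CPM in both wild-type libraries and 28.0 and 30.8 CPM in Npas3-/- and rose by 0.95 on the log2 scale (edgeR adjusted p = 0.033; with the correction -0.15, adjusted p = 0.71). Car14, a membrane-bound enzyme with its active site outside the cell, rose by 1.20 (adjusted p = 0.039; with the correction 0.72, adjusted p = 0.17). Both calls were lost without any 1 library. Car12, also an extracellular enzyme, differed by -0.86 as counted (adjusted p = 0.091). The lower genes, Car3, Car10 and Car13, and the gene higher with the correction, mitochondrial Car5b, were named after their values were seen. Car5b stood at 59.0 and 67.1 CPM in wild type and 68.7 and 65.9 CPM in Npas3-/-, a log2 fold change of 0.09 (adjusted p = 0.73) that became 1.73 with the correction (adjusted p = 0.023), its transcript having a GC content of 43.6%.

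Acid and lactate transport beside bicarbonate gave few calls that held with the correction. Of 9 sodium-proton exchangers 7 were tested, and 0 were higher and 2 were lower as counted, 0 and 1 with the correction. Slc9a7, an exchanger of the Golgi, was at 9.66 and 13.1 CPM in wild type and 3.44 and 3.32 CPM in Npas3-/- and fell by 1.75 on the log2 scale (edgeR adjusted p = 0.020), and by 1.97 with the correction (adjusted p = 0.027). The call was lost without either Npas3-/- library in both fits (adjusted p = 0.067 to 0.16), and with the correction also without wild-type replicate 2 (0.054). For Slc9a5 the difference as counted was 0.64 (adjusted p = 0.14). Of the 4 genes of proton-coupled lactate transport, 1 was higher and 2 were lower as counted and 0 with the correction. Slc16a1 (MCT1), a lactate carrier, was at 180.2 and 259.6 CPM in wild type and 81.2 and 85.7 CPM in Npas3-/- and fell by 1.40 (adjusted p = 0.018, lost without either Npas3-/- library; with the correction 0.58, adjusted p = 0.097). Bsg (basigin), which carries such transporters to the membrane, was at 494.6 and 420.2 CPM in wild type and 821.1 and 983.6 CPM in Npas3-/- and rose by 0.98 (adjusted p = 0.029, lost without any 1 library but wild-type replicate 1; with the correction -0.05, adjusted p = 0.86). The log2 fold change of Slc16a3 was 0.59 (adjusted p = 0.22), and the other lower gene, Slc16a7, was named after its values were seen.

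Slc12a2 (ENSMUSG00000024597.10, chr18:57878678-57946821, plus strand) was counted 5995 and 9934 times in wild-type cells and 1652 and 1430 times in Npas3-/- cells, which gave 67.5, 106.1, 19.9 and 18.6 CPM. The Npas3-/- libraries were close to each other and far below both wild-type ones. Slc12a2 fell by 2.17 on the log2 scale, 4.51-fold lower or 22.2% of the wild-type level (SE 0.29, interval -2.89 to -1.46, edgeR adjusted p = 0.013). The fall passed without any 1 of the other 3 libraries and not without Npas3-/- replicate 2 (adjusted p = 0.080). With the correction the levels were 41.0 and 44.0 CPM in wild type and 34.1 and 43.1 CPM in Npas3-/-, so that the genotypes overlapped, and the log2 fold change was -0.14 (SE 0.18, interval -0.58 to 0.30, adjusted p = 0.65). The corrected intervals of Slc12a2, Slc4a4 and Fxyd1 do not reach their values as counted, but such intervals take the fitted correction as exact. Which value is nearer to the cells was not tested. The Slc12a2 transcript had the lowest GC content of the 7 genes, 44.2%.

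**Figure D4:**
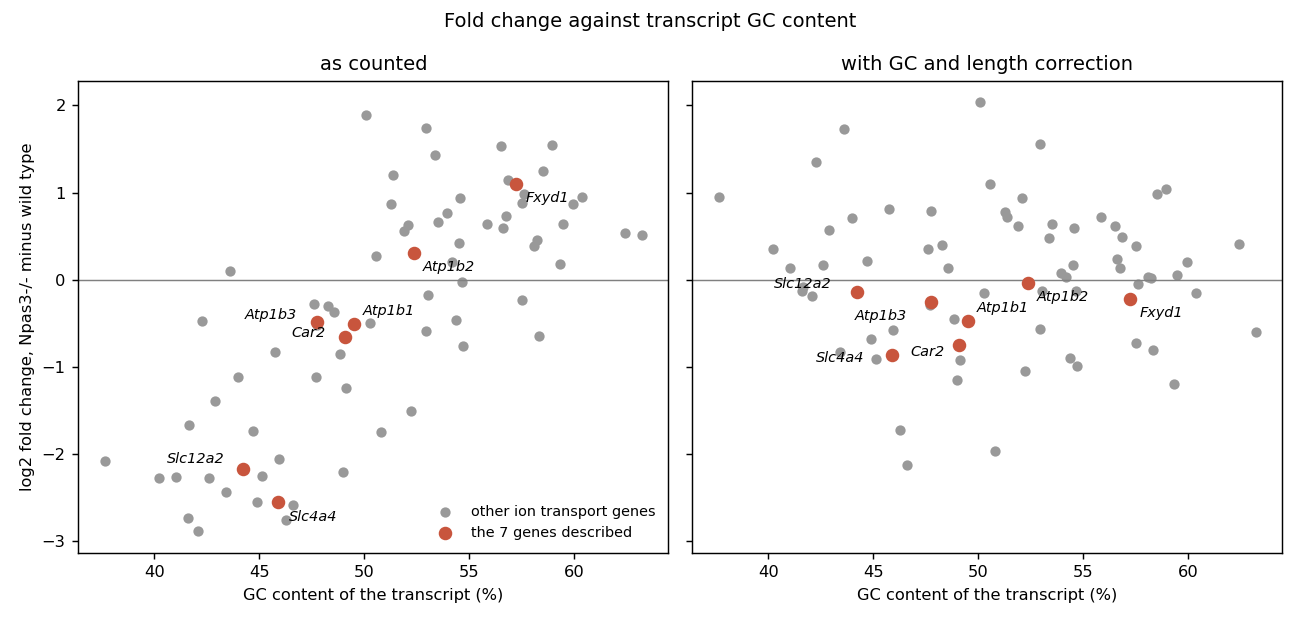
Log2 fold change of Npas3-/- over wild type against the GC content of the transcript in percent, for the 7 genes (red) and the other ion transport genes with at least 1 CPM (grey), as counted (left) and with the GC and length correction (right). As counted the 7 genes run along the trend of the grey points from Slc12a2 at 44.2% to Fxyd1 at 57.3%, and with the correction all 7 lie below 0, Slc4a4 and Car2 lowest.

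Across these 74 genes Spearman's rho of the fold change on GC content was 0.75 as counted and -0.00052 with the correction, a description across genes that share 4 libraries. The 2 genes that passed as counted, Slc4a4 and Slc12a2, had the lowest GC content of the 7, and Fxyd1 the highest. Atp1b1 and Car2, at 49.5% and 49.1%, were those whose fold change moved least.

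Of the 8 other cation-chloride cotransporters 7 were tested, and as counted 2 were higher and 1 was lower, with the correction 0 and 0; by unadjusted p below 0.05 with the correction there were 1 and 1. Slc12a4 (KCC1), which lets potassium and chloride out, rose by 0.87 on the log2 scale (edgeR adjusted p = 0.039; with the correction 0.38, adjusted p = 0.17) and Slc12a9, a relative, rose by 0.87 (adjusted p = 0.048; with the correction 0.20, adjusted p = 0.54). The Slc12a9 call was lost without any 1 library and that of Slc12a4 without any but wild-type replicate 1.

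Of the kinases that switch on Slc12a2 by phosphorylation and their scaffolds, Wnk1 and the scaffold gene Cab39 were lower both as counted and with the correction, calls that the corrected fit lost without either Npas3-/- library. WNK kinases activate Stk39 (SPAK) and Oxsr1 (OSR1), which phosphorylate Slc12a2, and Cab39 (MO25) is a scaffold that raises their activity. Of the 8 genes, all tested, 1 was higher and 4 were lower as counted, with the correction 0 and 2. Wnk1 was at 417.4 and 510.9 CPM in wild type and 123.8 and 77.3 CPM in Npas3-/-. It fell by 2.21 on the log2 scale (edgeR adjusted p = 0.013, 0.080 without Npas3-/- replicate 2) and by 1.16 with the correction (adjusted p = 0.023), a call lost without Npas3-/- replicate 1 (0.084) or Npas3-/- replicate 2 (0.15). Cab39 was at 101.3 and 131.9 CPM in wild type and 26.9 and 21.9 CPM in Npas3-/-. It fell by 2.26 (adjusted p = 0.013, 0.080 without Npas3-/- replicate 2) and by 0.91 with the correction (adjusted p = 0.029), a call lost without any 1 library but wild-type replicate 1 (adjusted p = 0.068 to 0.20). Its relative Cab39l fell by 2.43 as counted (adjusted p = 0.013, 0.080 without Npas3-/- replicate 2), and the corrected difference was -0.83 (adjusted p = 0.087). The fourth lower gene was Stk39, and Wnk4 was the higher one; both were named after their values were seen. Stk39 was at 23.2 and 27.6 CPM in wild type and 11.1 and 10.4 CPM in Npas3-/-, a fall of 1.24 (adjusted p = 0.024; with the correction -0.92, adjusted p = 0.053).

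Of 14 chloride channel genes, all tested, 2 were higher and 5 were lower as counted, while with the correction 2 were higher and 0 were lower. Clcn3, an endosomal chloride-proton exchanger, was at 78.7 and 120.8 CPM in wild type and 24.2 and 17.3 CPM in Npas3-/- and fell by 2.26 on the log2 scale (edgeR adjusted p = 0.013; with the correction 0.13, adjusted p = 0.68). Lrrc8b, a subunit of volume-regulated anion channels, fell by 2.56 (adjusted p = 0.014; with the correction -0.68, adjusted p = 0.088). Clcn5, a relative of Clcn3, fell by 1.74 (adjusted p = 0.017; with the correction 0.21, adjusted p = 0.74). The calls of Clcn3 and Lrrc8b were lost without Npas3-/- replicate 2, and that of Clcn5 without either Npas3-/- library. The genes higher with the correction were Lrrc8c (0.81, edgeR adjusted p = 0.032) and Lrrc8e (1.56, adjusted p = 0.044). Both were named after their values were seen. As counted Lrrc8c was lower (-0.84, adjusted p = 0.047) and Lrrc8e was higher (1.74, adjusted p = 0.025).

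Sodium-calcium exchange uses the gradient that the pump builds. Of 8 genes, all tested, 2 were higher and 3 were lower as counted, and 1 and 0 with the correction. Slc8a2 (NCX2), an exchanger, was at 17.8 and 19.0 CPM in wild type and 39.6 and 48.3 CPM in Npas3-/- and rose by 1.25 on the log2 scale (edgeR adjusted p = 0.019), and by 0.98 with the correction (adjusted p = 0.044). The call was lost without either Npas3-/- library as counted, and without any 1 library with the correction (adjusted p = 0.074 to 0.24). Slc8a1 (NCX1) fell by 2.27 as counted (adjusted p = 0.025, 0.089 without Npas3-/- replicate 2; with the correction 0.36, adjusted p = 0.67). Atp2b1, a calcium pump of the plasma membrane, fell by 2.28 (adjusted p = 0.016, lost without either Npas3-/- library; with the correction 0.17, adjusted p = 0.68).

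Over all other ion transport genes listed for this work, among them some whose values are not reported here, 77 of 89 genes were tested, and 13 were higher and 23 were lower as counted, the median log2 fold change being -0.24. With the correction 6 were higher and 4 were lower, beside 4.56% and 3.81% of all tested genes. The corrected median was 0.05, beside -0.03 over all tested genes. The numbers that follow, without each library in turn, are from the fit as counted. Leaving out wild-type replicate 1 gave 7 higher and 21 lower, and leaving out wild-type replicate 2 gave 4 and 15. Leaving out Npas3-/- replicate 1 gave 1 and 11, and leaving out Npas3-/- replicate 2 gave 0 and 0.

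**Figure D5:**
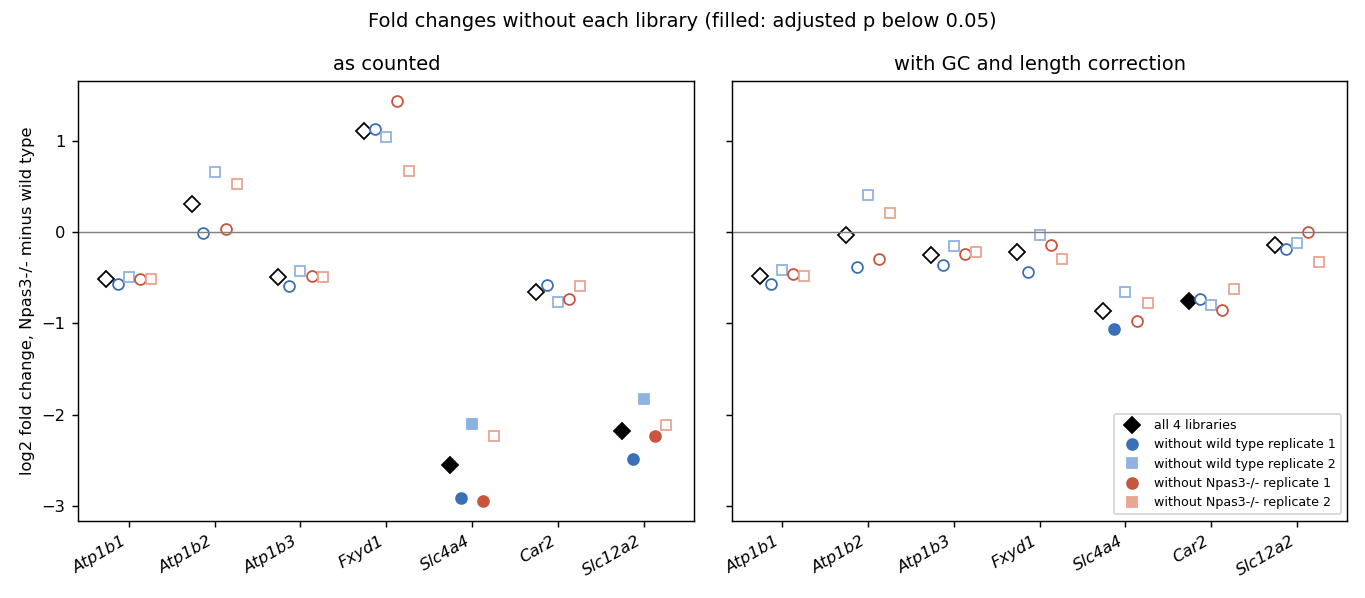
Log2 fold change of Npas3-/- over wild type for the 7 genes with all 4 libraries (black) and without each library in turn, as counted (left) and with the GC and length correction (right); filled points passed an adjusted p of 0.05. Slc4a4 and Slc12a2 stay below -1.8 in all fits as counted but are unfilled without Npas3-/- replicate 2, and Atp1b2 lies on both sides of 0.

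Genes of like profile over the 4 libraries were found by the distance between log2 CPM centred on each gene, among 10927 genes. The nearest were Sec22c (distance 0.04) and Alkbh5 (0.05) for Atp1b1, Stau1 (0.07) and Dag1 (0.08) for Atp1b2, Spata5 (0.02) and Slc38a3 (0.04) for Atp1b3, and Saysd1 (0.03) and Hyi (0.04) for Fxyd1. For Slc4a4 they were Cpeb2 (0.03) and Birc2 (0.05), for Car2 Sav1 (0.01) and Lmbr1 (0.05), and for Slc12a2 Esyt2 (0.06) and Hdgfl3 (0.06). With 4 libraries, likeness of this kind is a description only.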

How the data were processed

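RNA-seq counts of 4 mouse cortical astrocyte libraries were used. The authors deposited raw counts per gene; reads were processed with HISAT2 2.1.0, Trimmomatic 0.3.8 and featureCounts on build mm10, per the submitters' processing notes. Annotation release, strand setting and handling of shared reads: not given in the sources used here. Columns were matched to samples by name and groups taken from the genotype label. Whether replicates came from separate animals or cultures is not stated, so p-values measure only how far these samples spread, and that spread may be technical.

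Counts were tested with edgeR 4.0.16 (R 4.3.3): TMM normalization, filterByExpr at a minimum count of 10, the quasi-likelihood test between genotypes with no covariate and 2 residual degrees of freedom, and Benjamini-Hochberg adjustment over all 18838 tested genes at 0.05. SE is the fold change over the square root of F. CPM use TMM-scaled library sizes, TPM the union exon length. Symbols, lengths and GC content came from GENCODE M21, which held 53274 of the 53379 identifiers. The correction fitted, per library, natural splines (6 degrees of freedom each) in GC content and log2 length to each library's log2 CPM minus the mean over libraries, for genes with at least 1 CPM, and used the fit as an offset. Promoter windows were read from RefSeq. The tests were tested on simulated data. Intervals of counts cover counting error only.

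The 7 genes, the gene lists and the tests were chosen with earlier results of these data known. All 7 genes are named; of each other list up to 3 tested genes with the smallest p and at least 5 CPM on average; of each marker list the most abundant; and the 2 genes nearest in log2 CPM (pseudocount 2), with at least 5 CPM on average, clone and model names left out. Values of some further genes that this rule names are not reported here. Alternatives were DESeq2 size factors, DESeq2 1.42.0, limma-voom (limma 3.58.1), other filters and thresholds, replicate blocks, leaving out each library, and other forms of the correction. Replicate numbers are shared between genotypes, but same-numbered libraries did not deviate together (correlation -0.16 across genes), so they were not treated as pairs.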

Additional observations from a re-analysis of the deposited data

How the results depend on the processing

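As counted, the number of the 7 genes higher was 1 in place of 0 with DESeq2 size factors, a filter of 5 CPM, DESeq2 and a crossed replicate block added after the data were seen (3 lower), and 0 without each library. The number lower was 4 in place of 2 with the filter of 5 CPM and 1 with the GC and length correction or GC content alone. It was 0 at an adjusted p below 0.01 and with the replicate block plus correction, where 0 genes of the whole table passed. Over all tested genes, the filter of 5 CPM gave 2432 higher and 3547 lower of 11652, against 2188 and 4044 of 18838 in the main fit. Of 18838 genes, DESeq2 size factors gave 2386 higher and 4039 lower, DESeq2 3524 and 4848, and the crossed block 3336 and 4334. With the correction, 1 was lower, Car2, against 2 with DESeq2 and 0 with a correction fitted over all tested genes (added later). The number was 0 with the replicate block and 2 with the crossed one (added later). With splines of 3 degrees of freedom and with GC content alone it was also 1, but that gene was Slc4a4 and not Car2. The replicate block alone left 2 lower as counted but cut the calls over all genes from 6232 to 2560, and with the correction to 0 (4276 at an unadjusted p below 0.05). The numbers share only a label, so this does not show a weaker effect.

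For all other ion transport genes listed, some not reported here, 13 higher as counted became 6 with the correction, 6 without a filter, 0 at an adjusted p below 0.01, 2 with the replicate block, 2 with GC content alone, 0 with block and correction, and 0 to 7 without each library. The 23 lower became 4, 0 at 0.01, 14 with the replicate block, 7 with GC content alone, 0 with block and correction, and 0 to 21 without each library. With the correction, 6 higher and 4 lower became 16 and 11 with DESeq2, 2 and 7 with GC content alone, 0 and 0 with the replicate block, and 0 to 5 and 0 to 3 without each library.

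Signs turned for 4 genes; the cause was not tested. Atp1b2 as counted (0.30) was -0.036 with the correction, -0.019 with GC content alone, -0.0016 with block and correction, and between -0.014 and 0.66 without each library. Corrected, it was 0.047 with splines of 3 degrees of freedom, 0.098 with a correction fitted over all tested genes, and between -0.39 and 0.41 without each library (0.20 when Npas3-/- replicate 2 was left out). Atp1b3 was 0.081 with GC content alone, from -0.49 as counted and -0.25 corrected. Fxyd1 as counted (1.10) was -0.22 with the correction and -0.21 with block and correction; corrected, it was 0.37 with GC content alone and 0.046 fitted over all tested genes. Slc12a2 corrected (-0.14) was 0.0052 without Npas3-/- replicate 1, and between -0.33 and 0.0052 without each library. Slc4a4, Car2 and Atp1b1 were lower in Npas3-/- under all 15 alternatives to the fit as counted and all 10 to the corrected fit. Corrected fits are among the 15, some fits stand in both lists, and the stricter threshold reuses the main fit. The mean beta subunit shares moved by less than 1 SD with another transcript length or with the correction, an alternative added later under which they overlapped between genotypes.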

Other observations

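Lrrc8a, the essential subunit of volume-regulated anion channels, was singled out after its values were seen. It stood at 47.6 and 30.5 CPM in wild type, at 0 in Npas3-/- replicate 1 and at 45.9 CPM in Npas3-/- replicate 2. A single library thus lacks any count of a gene that its replicate holds at the wild-type level, and the fold change of -0.77 (edgeR adjusted p = 0.79) describes neither Npas3-/- library.

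The FXYD genes other than Fxyd1 and Fxyd6 were near the limit of detection: Fxyd2 and Fxyd5 had at most 1.36 CPM in any library, and Fxyd7 had no count.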
